A study of Mus musculus with 2 samples.

Results

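The genes described here are 8 flow-responsive and vasoactive endothelial genes, namely Klf2, Klf4, Nos3, Edn1, Ednrb, Ece1, Npr3 and Adm, of the 34244 genes in the deposited lists. They were chosen by name for their roles, and all 8 were found. Their raw counts of unique molecular identifiers (UMIs, 1 per captured transcript) were read in single endothelial cells of mouse liver. The PCB126 group was 1 C57/BL6 mouse given the compound by gavage at 20 µg/kg/day, and the Control group was 1 C57/BL6 mouse given the peanut oil vehicle, although its treatment label reads "Untreated". PCB126, a chlorinated biphenyl, acts like dioxin through the aryl hydrocarbon receptor (AHR). For both mice the labels give 5 weeks of exposure, a synthetic diet, a 12-hour fast and an age of postnatal day 21, and hepatocytes were spun out before capture. The protocol speaks of a single gavage but states the dose per day. With 1 library per group there were no replicates, no test was made, and mouse, dissociation and treatment cannot be told apart.

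Blood flowing over endothelium drags on its surface, and the transcription factors Klf2 and Klf4 are the best known genes that this drag switches on. They are known to favour the vasodilator enzyme encoded by Nos3, to hold down the vasoconstrictor gene Edn1 and to limit adhesion molecules that catch leukocytes. In liver the sinusoids are lined by fenestrated endothelium and drain from portal vessels towards the central vein, so that flow, oxygen and the endothelin and nitric oxide signals that set the width of sinusoids differ along this path.

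The libraries held 4307 (PCB126) and 8550 (Control) barcodes, of which 1138 and 1858 were kept as cells. Endothelial cells, gated on 13 markers such as Pecam1 and Cdh5, numbered 639 in the PCB126 library and 292 in the Control library. They were divided by a marker score into 498 PCB126 and 178 Control sinusoidal cells, and 141 PCB126 and 114 Control vascular cells. Stab2, a scavenger receptor of sinusoidal endothelium, stood at 735 CPM (UMIs scaled to a class total of 1000000) in PCB126 and 736 CPM in Control sinusoidal cells, and at 59.4 and 36.7 CPM in vascular cells. Red cell transcripts summed to 672 CPM in PCB126 and 6224 CPM in Control sinusoidal cells, and to 58.6 and 2296 CPM in vascular cells. Neutrophil markers summed to 21.7 and 189.5 CPM in sinusoidal cells and 9.76 and 131.5 CPM in vascular cells, in the same order. The median mitochondrial share was 14.8% in PCB126 and 11.1% in Control sinusoidal cells, and 11.1% and 7.37% in vascular cells, while median depth was 5622 and 5669 UMIs, and 8622 and 9428.5 UMIs. Cyp1a1, the standard readout of AHR activity, was 4646 CPM in PCB126 and 29.9 CPM in Control sinusoidal cells, which checks the labels; it lies outside the gene rule and was chosen for that check. Intervals below are exact 95% intervals and cover counting error only, ratios are PCB126 over Control, and a gene was read as past 2-fold only with at least 20 UMIs over both libraries.

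In both endothelial classes of the PCB126 library the flow-induced genes Klf2, Klf4 and Nos3 stood higher and the vasoconstrictor gene Edn1 and the vasodilator peptide gene Adm stood lower. In sinusoidal cells 1 of the 7 measurable genes, Klf2, was more than 2-fold higher, as were 6.15% of all genes measured, and 1, Edn1, was more than 2-fold lower, as were 4.30% of all genes. In vascular cells 0 of 8 genes were past 2-fold higher (2.57% of all genes) and 2, Edn1 and Adm, were past 2-fold lower (5.10% of all genes). These counts are small, and a count of 1 or 2 among so few genes says little by itself; the levels below carry the description. Over all genes with at least 100 UMIs the median log2 ratio was 0.05 in sinusoidal and -0.07 in vascular cells.

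**Figure D1:**
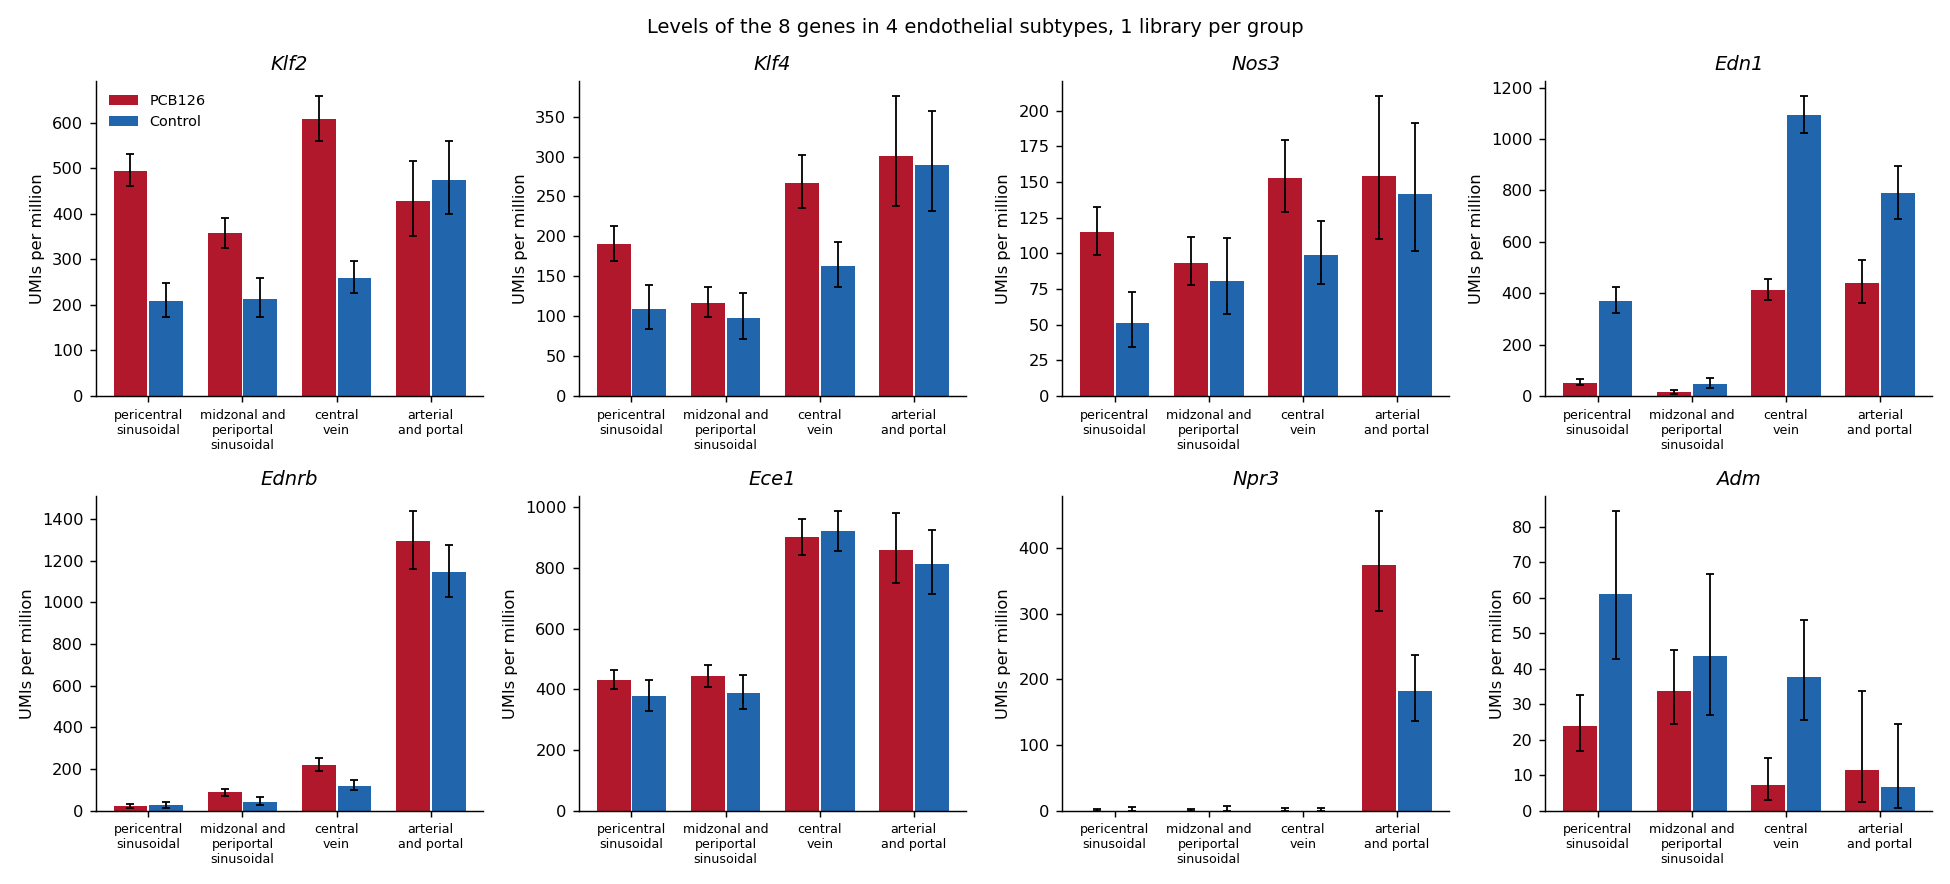
CPM of each gene (vertical axis) in 4 endothelial subtypes, with PCB126 in red left of Control in blue; bars are class sums of 1 library each and whiskers are exact 95% Poisson intervals. Klf2 is 608 CPM in PCB126 and 259.5 CPM in Control central vein cells, Edn1 is lower in PCB126 in all 4 subtypes, and Npr3 has counts in arterial and portal cells alone.

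Klf2 (ENSMUSG00000055148; chromosome 8, 72319033 to 72321656, plus strand, GRCm38) encodes the zinc finger factor KLF2. It stood at 433 CPM in PCB126 and 211 CPM in Control sinusoidal cells, from 1260 and 226 UMIs, a ratio of 2.05 (1.78 to 2.38). In vascular cells it stood at 570.2 CPM in PCB126 and 317 CPM in Control, a ratio of 1.80 (1.58 to 2.05). The sinusoidal and vascular ratios had overlapping intervals. It was the one flow-induced gene past 2-fold in sinusoidal cells, but that call sits near the boundary: the ratio was 1.80 with up to 50% mitochondrial UMIs allowed and 1.93 with immediate early classes weighed equally. The signal was spread over many cells: 76.1% of PCB126 and 51.1% of Control sinusoidal cells had a Klf2 UMI, and 30.7% and 14.6% after every cell was thinned to 1000 UMIs. The 5 cells with most Klf2 UMIs held 5.71% of the PCB126 and 20.8% of the Control sinusoidal count.

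The Klf2 difference was not even along the vascular tree. Central vein cells, which receive the outflow of the sinusoids, had 608 CPM in PCB126 (108 cells) and 259.5 CPM in Control (81 cells), a ratio of 2.34 (2.00 to 2.75). Arterial and portal cells had 429 CPM in PCB126 and 475 CPM in Control (33 cells in each), a ratio of 0.902 (0.697 to 1.17). The order of these vessels was therefore opposite in the libraries: Klf2 was 1.42 times as high in central vein as in arterial and portal cells of the PCB126 library (1.16 to 1.75), and 0.547 times as high in the Control library (0.440 to 0.681). The 18 immediate early genes also differed between these vessels: they summed to 1572 CPM in PCB126 and 3248 CPM in Control central vein cells (0 of 15 measurable past 2-fold higher, 8 lower, median log2 ratio -1.13), and to 2301 and 1404 CPM in arterial and portal cells (6 higher, 0 lower, median 0.56). With cells of 3 immediate early levels weighed equally the Klf2 ratios were 2.05 in central vein and 0.900 in arterial and portal cells. Among sinusoidal cells the pericentral ratio was 2.37 (1.96 to 2.89) and the midzonal and periportal ratio 1.67 (1.35 to 2.09), with overlapping intervals. In the Control library the pericentral (209 CPM) and the midzonal and periportal (214 CPM) levels did not differ beyond counting error.

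Klf4 (ENSMUSG00000003032; chromosome 4, 55527143 to 55532466, minus strand) encodes a related factor that shares targets with KLF2. It stood at 157 CPM in PCB126 and 104 CPM in Control sinusoidal cells, a ratio of 1.52 (1.23 to 1.89). In vascular cells it stood at 274 CPM in PCB126 and 197 CPM in Control, a ratio of 1.39 (1.17 to 1.66). By vessel the Klf4 ratios were 1.63 (1.32 to 2.03) in central vein and 1.04 (0.755 to 1.43) in arterial and portal cells, with overlapping intervals. Its sinusoidal direction depended on the mitochondrial limit: among cells with at most 10% mitochondrial UMIs Klf4 was 124.5 CPM in PCB126 and 134 CPM in Control.

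The 250 bases before the start of Klf2 (chr8:72318812-72319061, plus strand) and of Klf4 (chr4:55532476-55532725, minus strand), the pair of genes that stood higher together, are shown from RefSeq (GRCm38.p6), whose starts for Klf2, Klf4 and Adm differ from the GENCODE starts given in the text. Capitals mark matches to the MEF2 motif, since MEF2 factors are the known link between flow and Klf2, and to the AHR core GCGTG, since PCB126 binds that receptor, on either strand.
Klf2: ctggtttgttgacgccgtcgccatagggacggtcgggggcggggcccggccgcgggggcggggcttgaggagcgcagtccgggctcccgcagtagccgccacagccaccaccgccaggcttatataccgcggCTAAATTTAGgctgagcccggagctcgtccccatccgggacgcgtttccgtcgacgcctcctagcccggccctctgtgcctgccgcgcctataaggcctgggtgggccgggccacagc
Klf4: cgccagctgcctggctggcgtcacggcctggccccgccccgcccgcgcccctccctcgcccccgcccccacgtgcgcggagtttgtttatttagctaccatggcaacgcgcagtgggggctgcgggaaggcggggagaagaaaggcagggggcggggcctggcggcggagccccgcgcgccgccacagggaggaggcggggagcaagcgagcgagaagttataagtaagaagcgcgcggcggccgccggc
The Klf2 window held 1 MEF2 match, 118 to 109 bases before the start, and the Klf4 window held none; 2.92% of the 32851 windows in the table held one. Neither window held GCGTG, which occurred in 28.2% of all windows. The windows held 71.2% and 74.0% G and C, against a median of 52.4% over the table. A match is a stretch of letters and no measured binding site.

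Klf2 and Klf4 were not endothelial alone. Klf2 stood at 5552 CPM in PCB126 and 3644 CPM in Control neutrophils, and Klf4 reached 1173 CPM in Control monocytes. In cholangiocytes, which line bile ducts, Klf2 was only 12.9 CPM in PCB126 (19.5% of cells with a UMI, median depth 15849 UMIs) and 31.4 CPM in Control (28.4% of cells, 12052 UMIs), well under the endothelial levels. With 10% of each library's summed profile subtracted, an alternative added after the data were seen, the Klf2 ratio was 4.26 in sinusoidal and 2.66 in vascular cells. That 10% was set and not measured, and it may remove more Klf2 than free RNA supplied, so the size of these ratios depends on it. Both genes also belong to the early response to tissue dissociation. The 18 immediate early genes summed to 1183 CPM in PCB126 and 2083 CPM in Control sinusoidal cells, and to 884 and 843 CPM without Ctgf, while in vascular cells they summed to 1725 and 2759 CPM, and to 1145 and 1234 CPM without Ctgf. Endothelial cells of both libraries together were also divided into 3 classes of equal size by the sum of all 18 genes, Ctgf included. With these classes weighed equally, also added later, Klf2 was 439 CPM in PCB126 and 227 CPM in Control sinusoidal cells. No such classes were made without Ctgf. The part of red cell and neutrophil RNA in these results was not tested beyond that subtraction.

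Nos3 (ENSMUSG00000028978; chromosome 5, 24364810 to 24384474, plus strand) encodes endothelial nitric oxide synthase, which makes the gas that relaxes vessel walls. It stood at 105 CPM in PCB126 and 64.4 CPM in Control sinusoidal cells, a ratio of 1.63 (1.25 to 2.15), and at 153 and 110.1 CPM in vascular cells, a ratio of 1.39 (1.10 to 1.76). The largest of its ratios lay in pericentral sinusoidal cells, with 115 CPM in PCB126 and 50.9 CPM in Control, a ratio of 2.26 (1.53 to 3.44), which was 1.43 after thinning. Midzonal and periportal sinusoidal cells had 93.3 and 80.9 CPM, and arterial and portal cells 154 and 141.5 CPM, and in both the interval of the ratio held 1. In the other cell classes with at least 50 cells Nos3 did not exceed 3.51 CPM in PCB126 and 1.65 CPM in Control.

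Edn1 (ENSMUSG00000021367; chromosome 13, 42301476 to 42307990, plus strand) encodes preproendothelin-1, the precursor of the strongest known vasoconstrictor peptide. In sinusoidal cells Edn1 stood at 34.7 CPM in PCB126 and 225 CPM in Control, 6.48-fold lower in PCB126 (5.12 to 8.26). In vascular cells it stood at 418 CPM in PCB126 and 1012 CPM in Control, 2.42-fold lower (2.18 to 2.69). The ratios of both classes, 0.154 and 0.413, had intervals that did not overlap. The sinusoidal ratio was 0.0604 with classes from unsupervised clusters, 0.0684 without cells near the class boundary and 0.0993 without the 5 richest cells. The clusters did not divide the libraries alike: 195 PCB126 and 4 Control cells, with a median score of 0.794, went whole to the vascular class. The vascular difference was 1.98-fold with the boundary at a score of 0. After thinning, 2.22% of PCB126 and 8.43% of Control sinusoidal cells had an Edn1 UMI, and 27.1% and 57.7% of vascular cells.

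Edn1 was lower in all 4 subtypes of the PCB126 library. Central vein cells had 412 CPM in PCB126 and 1093 CPM in Control, a ratio of 0.377 (0.334 to 0.425), and arterial and portal cells 440.1 and 788 CPM, a ratio of 0.559 (0.442 to 0.702). Pericentral sinusoidal cells had 51.8 CPM in PCB126 and 370 CPM in Control, 7.13-fold lower (5.52 to 9.30), and midzonal and periportal cells 13.8 and 47.7 CPM, 3.47-fold lower (1.79 to 6.82). The midzonal and periportal sums were only 18 PCB126 and 23 Control UMIs, and 5 of 245 PCB126 cells held all 18. After thinning, 2 of 243 PCB126 and 0 of 91 Control cells of this subtype had an Edn1 UMI, too few to read. Edn1 was 3.77 times as high in pericentral as in midzonal and periportal sinusoidal cells of the PCB126 library (2.24 to 6.67) and 7.75 times as high in the Control library (5.03 to 12.5). It was the 1 gene of 7 past 2-fold higher in pericentral cells in both libraries, as were 0.865% of all genes. In the PCB126 library Klf2 (1.39, 1.24 to 1.56) and Klf4 (1.63, 1.34 to 1.99) were also higher in pericentral cells. The 5 richest cells held 56.6% of the 83 PCB126 and 32.1% of the 218 Control pericentral Edn1 UMIs. More pericentral than midzonal and periportal cells lay near the class boundary, 26 and 8 in PCB126 and 18 and 9 in Control. Outside endothelium Edn1 did not exceed 12.3 CPM in PCB126 and 18.9 CPM in Control in any class of at least 50 cells.

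One vascular marker of the score moved with Edn1 in the sinusoidal class. Vwf, chosen for this after its values were seen, stood at 5.84 CPM in PCB126 and 129 CPM in Control sinusoidal cells, and at 1007 and 2294 CPM in vascular cells. Ly6a, another of these markers and named for going the other way, stood at 352 CPM in PCB126 and 101 CPM in Control sinusoidal cells. In vascular cells it was 818 and 691 CPM. The 7 vascular markers together summed to 982.1 CPM in PCB126 and 1127 CPM in Control sinusoidal cells, and to 3516 and 5150 CPM in vascular cells. Along the score Edn1 was lower in PCB126 in each of the 6 bins, with ratios of 0.101 to 0.517. In the 398 PCB126 and 114 Control cells with a score of at least 2, where Vwf was 0.449 and 22.9 CPM, Edn1 stood at 7.64 and 74.8 CPM, 9.79-fold lower in PCB126 (5.54 to 18.1). Where Vwf had 0 UMIs in both libraries, at a score of at least 3, Edn1 was 5.00 CPM in PCB126 and 33.6 CPM in Control, from 4 and 6 UMIs. Klf2 was higher in PCB126 in each of the same 6 bins, with ratios of 1.53 to 2.93.

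**Figure D2:**
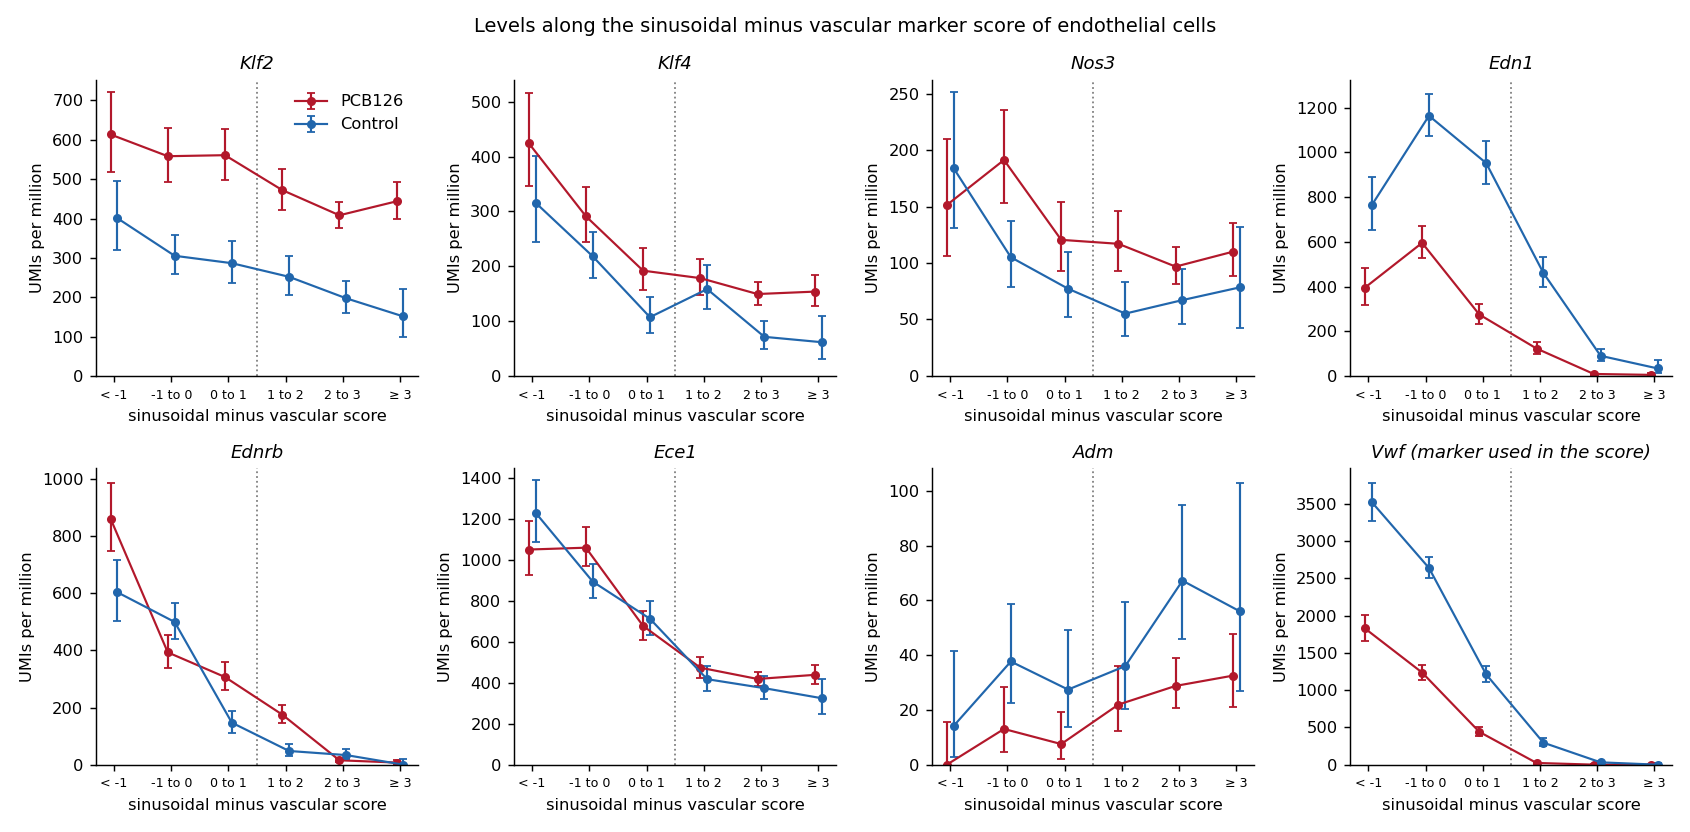
CPM, UMIs scaled to a class total of 1000000 (vertical axis), along 6 bins of the sinusoidal minus vascular score, from vascular on the left to sinusoidal on the right, for PCB126 (red) and Control (blue); points are sums over the cells of a bin, whiskers exact 95% Poisson intervals, and the dotted line the score of 1 that divides the classes. Klf2 is higher and Edn1 lower in PCB126 in every bin, and Vwf, which helps to define the score, is lower in PCB126 wherever it was detected.

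The promoter windows of Edn1 (chr13:42301226-42301475, plus strand) and Adm (chr7:110627407-110627656, plus strand), the pair that stood lower together, are shown with the same motifs in capitals.
Edn1: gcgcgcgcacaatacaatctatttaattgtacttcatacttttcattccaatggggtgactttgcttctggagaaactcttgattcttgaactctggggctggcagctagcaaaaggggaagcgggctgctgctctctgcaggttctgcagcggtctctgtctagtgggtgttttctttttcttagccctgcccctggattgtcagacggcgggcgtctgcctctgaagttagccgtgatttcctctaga
Adm: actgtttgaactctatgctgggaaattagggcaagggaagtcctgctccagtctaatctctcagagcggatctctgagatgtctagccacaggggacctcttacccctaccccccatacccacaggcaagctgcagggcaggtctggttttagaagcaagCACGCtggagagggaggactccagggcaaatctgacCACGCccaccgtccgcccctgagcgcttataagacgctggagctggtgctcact
The Edn1 window held no MEF2 match and no GCGTG on either strand. The Adm window held GCGTG on the minus strand at 2 places, 90 to 86 and 54 to 50 bases before the start. GCGTG also occurred in windows of Ednrb and Ece1, which are not shown, and in 28.2% of all windows. A link between these matches and the levels was not tested. None of the 4 windows shown for Klf2, Klf4, Edn1 and Adm held the AP-1 motif TGANTCA, found in 6.75% of all windows, or the GATA motif GATAA, found in 22.6%.

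Ece1 (ENSMUSG00000057530; chromosome 4, 137862237 to 137965229, plus strand) encodes the protease that cuts the endothelin precursor to its active form. It stood at 437 CPM in PCB126 and 383 CPM in Control sinusoidal cells, a ratio of 1.14 (1.02 to 1.28), and at 893 CPM in each library in vascular cells, a ratio of 1.00 (0.917 to 1.09). The intervals leave room for a difference of up to 1.28-fold in sinusoidal cells. Ece1 was the most widely detected of the set, with a UMI in 83.7% of PCB126 and 81.5% of Control sinusoidal cells, and in 92.9% and 92.1% of vascular cells.

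Ednrb (ENSMUSG00000022122; chromosome 14, 103814625 to 103844402, minus strand) encodes the endothelin B receptor, which on endothelium clears endothelin and drives nitric oxide release. In sinusoidal cells it stood at 50.9 CPM in PCB126 and 33.6 CPM in Control, a ratio of 1.51 (1.05 to 2.25), and in vascular cells at 447 and 393 CPM, a ratio of 1.14 (1.00 to 1.29). With classes from unsupervised clusters, which did not divide the libraries alike, the sinusoidal ratio was 0.398. Ednrb was highest on the inflow side: arterial and portal cells had 1293 CPM in PCB126 and 1145 CPM in Control, and central vein cells 220.5 and 121 CPM. Pericentral sinusoidal cells had 21.2 and 25.4 CPM and midzonal and periportal cells 87.2 and 43.6 CPM. Between libraries the ratio was 1.83 (1.43 to 2.34) in central vein (0.889 after thinning) and 1.13 (0.968 to 1.32) in arterial and portal cells. In midzonal and periportal sinusoidal cells it was 2.00 (1.25 to 3.36), from 114 and 21 UMIs, but 0.626 when cells near the class boundary were left out. Few cells carried it: 5.82% of PCB126 and 7.30% of Control sinusoidal cells had a UMI, and the 5 richest held 58.8% and 69.4% of the UMIs.

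Ednrb and Ece1 read differently in endothelium as a whole. The sinusoidal share of endothelial cells was 77.9% in PCB126 (74.5 to 81.1) and 60.96% in Control (55.1 to 66.6), so pooled sums weigh the classes differently. Over all endothelial cells Ednrb was 168 CPM in PCB126 and 217 CPM in Control, a ratio of 0.776 (0.690 to 0.874), below 1 although both class ratios were above 1. Ece1 had a pooled ratio of 0.890 (0.833 to 0.952) in the same way, and Edn1 0.237 (0.215 to 0.261). The pooled Klf2 ratio was 1.79 (1.63 to 1.97).

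Npr3 (ENSMUSG00000022206; chromosome 15, 11839896 to 11907287, minus strand) encodes the clearance receptor for natriuretic peptides, hormones that relax vessels. All of its endothelial UMIs, 97 in PCB126 and 54 in Control, lay in arterial and portal cells, with 0 in sinusoidal and 0 in central vein cells of either library. In arterial and portal cells Npr3 stood at 374.5 CPM in PCB126 and 182 CPM in Control, a ratio of 2.06 (1.46 to 2.93), the 1 gene of 7 past 2-fold higher there (3.96% of all genes), while 0 were past 2-fold lower (8.53% of all genes). The counts came from few cells: 19 of 33 PCB126 cells had a UMI (57.6%), against 7 of 33 Control cells (21.2%), and the 5 richest cells held 67.0% and 92.6% of the UMIs. After thinning the arterial and portal ratio was 1.03, and without the 5 richest cells it was 8.72, so its size was not fixed by these cells. A count of 0, taken as up to 3 UMIs, allows 1.03 CPM in PCB126 and 2.80 CPM in Control sinusoidal cells, and its exact interval reaches 1.27 and 3.44 CPM.

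Adm (ENSMUSG00000030790; chromosome 7, 110627661 to 110629820, plus strand) encodes adrenomedullin, a peptide that widens vessels and tightens endothelium. It ran against the other genes, being higher in sinusoidal than in vascular cells. Sinusoidal cells had 28.2 CPM in PCB126 and 53.2 CPM in Control, 1.89-fold lower in PCB126 (1.32 to 2.68). Vascular cells had 8.13 and 29.5 CPM, 3.63-fold lower (1.75 to 8.26), from 10 and 33 UMIs, and 1.92-fold lower when doublets were kept. Central vein cells had 7.21 CPM in PCB126 and 37.8 CPM in Control, a ratio of 0.191 (0.0710 to 0.442). Arterial and portal cells held 3 and 2 UMIs, too few to read. Adm was lower in PCB126 in each of the 6 score bins, 1 of which held 0 PCB126 and 3 Control UMIs, but counts were low: 13.1% of PCB126 and 20.8% of Control sinusoidal cells had a UMI.

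**Figure D3:**
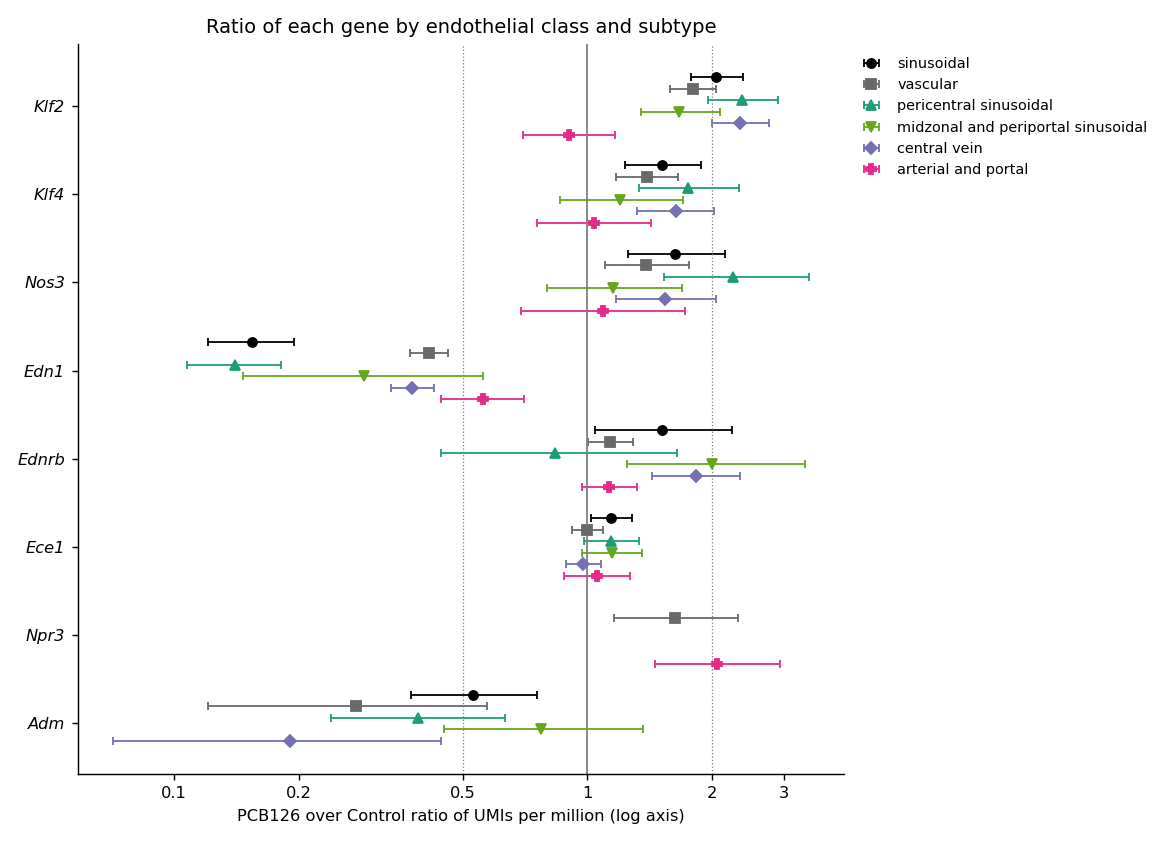
Ratio of CPM, PCB126 over Control, on a log axis for each gene (rows) in both endothelial classes and 4 subtypes (symbols), with exact 95% intervals that cover counting error only; dotted lines mark 2-fold. The Klf2 symbols lie right of 1 except in arterial and portal cells (0.902), all Edn1 symbols lie left of 1, and the Ece1 symbols lie close to 1.

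By subtype the counts of genes past 2-fold were as follows. In central vein cells 1 gene, Klf2, was higher (3.04% of all genes) and 2, Edn1 and Adm, were lower (4.66% of all genes). In pericentral sinusoidal cells 2 genes, Klf2 and Nos3, were higher (6.32%) and 2, Edn1 and Adm, were lower (4.56%). In midzonal and periportal sinusoidal cells 1 gene, Ednrb, was higher (9.53%) and 1, Edn1, was lower (4%). Of the 20 pairs of ratios compared between sister classes, 4 had intervals that did not overlap. They were Edn1 between sinusoidal and vascular cells, and Klf2, Edn1 and Ednrb between central vein and arterial and portal cells. Such pairs were not compared for genes outside the set, so no share of all genes stands beside this count. Since the intervals cover counting error only, the count does not set these genes apart from others. The Ednrb difference rested on few cells, since 5 cells held 56.5% of the PCB126 and 65.7% of the Control central vein UMIs, and the central vein ratio was 0.889 after thinning. Few cells also weighed on the other arterial and portal sums. There the 5 richest cells held 43.2% of PCB126 and 38.3% of Control Klf2 UMIs, and 55.3% and 47.9% of Edn1 UMIs. These differences between subtypes were not tested.

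Several of the genes differed between vessel types in both libraries. Vascular over sinusoidal ratios were past 2-fold higher in both libraries for 4 of 8 genes, Edn1, Ednrb, Ece1 and Npr3, as for 4.04% of all genes; Npr3 had 20 UMIs only through the vascular class. Edn1 was 12.04 times as high in vascular cells of the PCB126 library (9.71 to 15.1) and 4.50 times in the Control library (3.91 to 5.19), and Ednrb 8.78 times (7.31 to 10.6) and 11.7 times (8.31 to 16.9). Npr3 was at least 76.5-fold higher in PCB126 and at least 17.3-fold higher in Control vascular cells, with the 0 of each sinusoidal class set at 3 UMIs; the exact lower limits were 61.05-fold and 13.6-fold. Klf2 was 1.32 and 1.502 times, Klf4 1.74 and 1.90 times and Nos3 1.45 and 1.71 times as high in vascular cells, in the same order. Central vein cells were past 2-fold below arterial and portal cells in both libraries for 2 of 7 genes, Ednrb and Npr3, as for 2.50% of all genes. Here Npr3 had 20 UMIs only through the arterial and portal class.

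Over the 8 sums of 4 subtypes and 2 libraries, which share libraries and class totals, Klf2 varied with Nos3 (Pearson r 0.86) and Klf4 (0.82) on the log2 scale, and hardly with Edn1 (0.08). Adm varied inversely with Klf2 (-0.87), Klf4 (-0.92) and Nos3 (-0.90). Its lowest sums were near the floor, with 3 PCB126 and 2 Control UMIs in arterial and portal cells and 7 in PCB126 central vein cells. Of 3325 genes with at least 100 endothelial UMIs in each library, Timp3, which encodes an inhibitor of matrix proteases, was most like Klf2 (r 0.98). Next came Sf3b2 and Tubb4b, of splicing and microtubules (both 0.93). Nearest to Klf4 were Atxn7l3b (0.99), Cox5a and H3f3a (both 0.96), and nearest to Nos3 were Sub1 (0.95), Id1 (0.95) and Arhgdia (0.93). Edn1 was most like the lipid desaturase gene Scd2 (0.98), the interleukin-4 receptor gene Il4ra (0.97) and Serpinb6b (0.97). Ednrb was nearest to Cldnd1 (0.98), Ly6e (0.97) and Fxyd5 (0.95), Ece1 to Rpl34 (0.99), Rpl10a and S100a11 (both 0.98), Npr3 to Utrn (0.98), Tsc22d1 and Nrg1 (both 0.97), and Adm to Atxn1 (0.97) and Rnd3 (0.96). Npr3 had 0 UMIs outside the arterial and portal sums, so its correlations rest on those, from 33 cells in each library. These are descriptions over 8 sums.

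Of all genes measured, 52.1% of sinusoidal and 42.0% of vascular ratios lay above 0 on the log2 scale; the counts of the lists that follow stand beside these shares and beside 6.15% past 2-fold higher and 4.30% lower in sinusoidal cells, and 2.57% and 5.10% in vascular cells. Other genes of the flow axis were divided. Of 27 genes, 25 were measurable in sinusoidal cells, with 3 past 2-fold higher and 3 lower and a median log2 ratio of 0.13, beside 0.03 over all genes. The higher ones were Timp3 (1981 CPM in PCB126, 648 CPM in Control, ratio 3.06), the lipid phosphatase gene Plpp3 (2132 and 747 CPM, 2.86) and the scaffold gene Slc9a3r2 (313 and 141 CPM, 2.22). Plpp3 and Slc9a3r2 are known targets of KLF2 in human endothelium, but whether Klf2 had a part in their levels here was not tested. The lower ones were the adhesion molecules Icam1 (51.6 and 145 CPM, 0.356) and Vcam1 (72.2 and 203.5 CPM, 0.355) and the junctional receptor gene Heg1 (225 and 491 CPM, 0.458). The mechanosensitive channel gene Piezo1 stood at 56.7 CPM in PCB126 and 82.1 CPM in Control. In vascular cells 1 of 25 was higher, Timp3 (2886 and 1102 CPM, 2.62), and 2 were lower, Vcam1 (134 and 456 CPM, 0.294) and Icam1 (116 and 249 CPM, 0.468), with a median of 0.11, beside -0.09 over all genes.

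Of the nitric oxide and cGMP list 12 of 16 genes were measurable; in sinusoidal cells 11 were above 0 on the log2 scale, 2 past 2-fold higher and 0 lower (median 0.41), and in vascular cells 7 were above 0 with 0 past 2-fold in either direction (median 0.16). Nostrin, whose product carries the Nos3 enzyme inside the cell, stood at 231 CPM in PCB126 and 104.5 CPM in Control sinusoidal cells (ratio 2.21, 1.81 to 2.72). It and Spr, a gene of cofactor synthesis (25.1 and 11.2 CPM), were named after their values were seen. Of 6 further endothelin genes 0 reached 20 UMIs in either class. Of the natriuretic list 3 of 7 genes were measurable, with 0 past 2-fold (median -0.18 in sinusoidal and 0.39 in vascular cells), and Npr1, the signalling receptor, stood at 286 CPM in PCB126 and 200 CPM in Control sinusoidal cells.

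Of the adrenomedullin and calcitonin receptor list 5 of 8 genes were measurable in each class, with 1 higher and 0 lower (medians -0.16 in sinusoidal and -0.14 in vascular cells). The higher one was Ackr3, a scavenging receptor that also takes up adrenomedullin, at 53.3 CPM in PCB126 and 9.33 CPM in Control sinusoidal cells (5.71-fold, 3.02 to 12.1) and 163.5 and 58.2 CPM in vascular cells (2.81-fold). Calcrl, the receptor for the peptide, was 423.5 CPM in PCB126 and 608 CPM in Control sinusoidal cells, and its partner Ramp2 391 and 300.5 CPM. Of 18 other vasoactive genes, 5 were measurable in sinusoidal cells (0 higher, 2 lower, Ace and Adora2a, median -0.90) and 7 in vascular cells (2 higher, S1pr3 and Nt5e, 1 lower, Ace, median 0.43). In vascular cells the sphingosine-1-phosphate receptor gene S1pr3 was 85.4 CPM in PCB126 and 14.3 CPM in Control (5.97-fold), and Ace, the angiotensin converting enzyme, 34.2 and 86.8 CPM (ratio 0.394). Of the 18 immediate early genes 16 were measurable in sinusoidal cells (0 higher, 2 lower, Ctgf and Socs3, median 0.03) and 15 in vascular cells (0 higher, the same 2 lower, median -0.22), where the central vein and the arterial and portal cells described above went opposite ways. Ctgf, which encodes a matricellular protein, was 299 CPM in PCB126 and 1240 CPM in Control sinusoidal cells (ratio 0.241), and 581 and 1525 CPM in vascular cells (0.381).

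**Figure D4:**
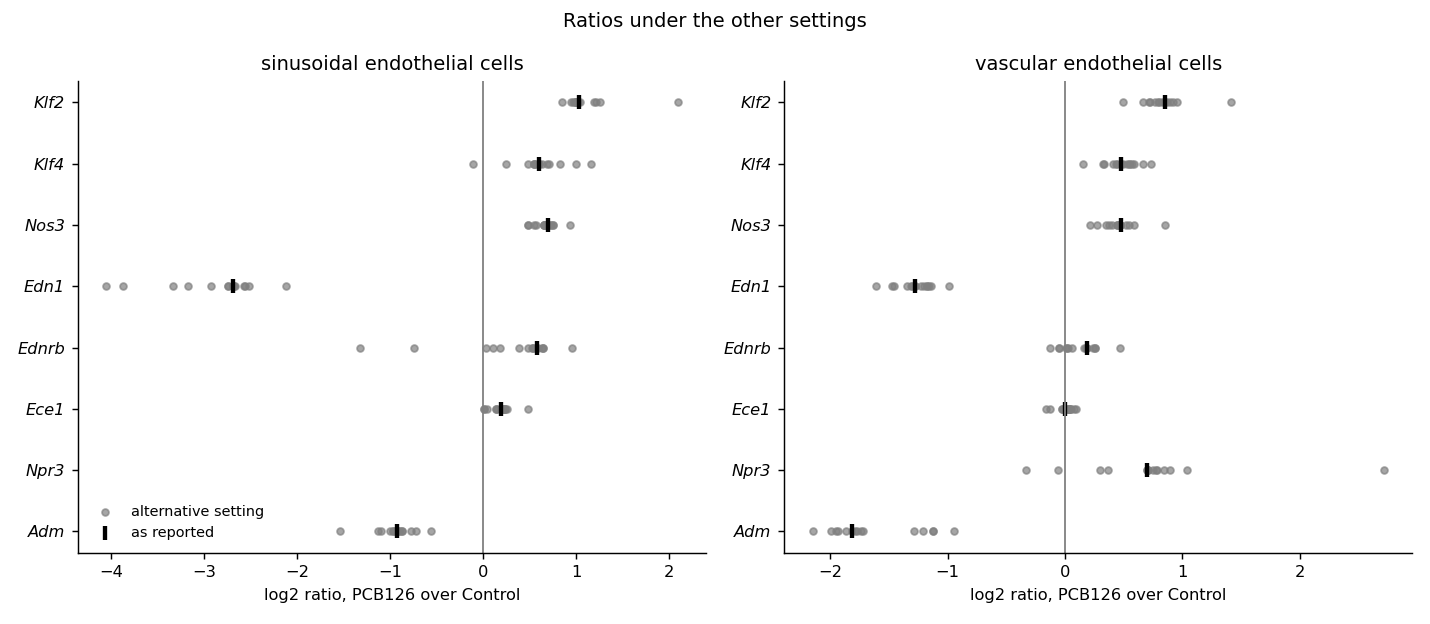
Log2 ratio, PCB126 over Control, of each gene in sinusoidal (left) and vascular (right) cells, as reported (black bar) and under each alternative setting (grey points). Edn1, Adm, Klf2 and Nos3 stay on 1 side of 0 in both panels, whereas Ednrb in both panels, Klf4 in sinusoidal cells and Npr3 and Ece1 in vascular cells have points on both sides.

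Most unsupervised endothelial clusters held cells mainly of 1 library, so classes made from them were not alike in the libraries. The main sinusoidal clusters held 365 PCB126 and 1 Control cells, and 39 and 187. The vascular ones held 195 PCB126 and 4 Control cells, 2 and 85, and 38 and 35, the last alone being shared about evenly.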

How the data were processed

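Single-cell 3′ RNA libraries of 1 PCB126 and 1 Control mouse liver were analysed from UMI counts that the authors deposited as raw counts per gene and barcode, made with Cell Ranger 6.0.0 per the file headers, with build and gene models not given in the sources used here. Seurat 4.0.1 and another Cell Ranger release, 6.1.1, appear in the submitters' processing notes. Gene positions come from GENCODE M21 (GRCm38), which held 34049 of the 34244 identifiers, and promoter windows for 7 of the 8 genes from RefSeq (GRCm38.p6).

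Barcodes were kept with at least 500 UMIs, 250 genes and at most 20% mitochondrial UMIs, which removed 1460 PCB126 and 6252 Control barcodes for few genes and 1698 and 412 for mitochondrial share. Scrublet scores at 0.8% per 1000 cells removed 11 and 28 doublets. Kept cells held 9888509 PCB126 and 13763541 Control UMIs, and 3 barcode sequences occurred in both libraries. A score of sinusoidal minus vascular markers, divided at 1, gave both classes, and zonal markers gave the subtypes; these rules were chosen after marker levels were seen, and no gene of the 8 was a marker. Counts were summed per class and given as CPM. Exact Poisson, Clopper-Pearson and conditional binomial intervals at 95% cover counting error only, and the ratio computation was tested on simulated data.

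The genes and lists were chosen with earlier results of these data known. The rule for further genes took those with at least 100 UMIs and a ratio past 2-fold with an interval beyond 1.5-fold, at most 8 per class, and for each of the 8 genes the 3 with the highest correlation, 1 of which is not reported here. Nostrin and Socs3 (past the limit of 8), Spr, Nt5e, Adora2a, Piezo1, Npr1, Calcrl and Ramp2 fall outside it and were named after their values were seen. The alternatives covered UMI, mitochondrial and doublet filters, thinning to 1000 UMIs, totals, centring, class definitions, weighting and the richest cells; 3 were added after the data were seen, and 0.5 UMIs were added to both sums of each recomputed ratio. Python 3.11.15, numpy 2.4.6, scipy 1.17.1, pandas 2.3.3, scanpy 1.11.5, leidenalg 0.10.2 and matplotlib 3.10.9 were used.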

Additional observations from a re-analysis of the deposited data

Results flagged for a closer look

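The Klf2 ratio, PCB126 over Control, stood on opposite sides of 1 in vessels of different kinds: 2.34 (2.00 to 2.75) in central vein cells and 0.902 (0.697 to 1.17) in arterial and portal cells. Ednrb did the same between sinusoidal zones, with 0.834 (0.442 to 1.65) in pericentral and 2.00 (1.25 to 3.36) in midzonal and periportal cells. Neither difference was tested, the intervals of the Ednrb pair overlapped, and each arterial and portal sum came from 33 cells.

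Barcodes with over 20% and up to 50% mitochondrial UMIs took no part in the main comparisons and entered only the alternative that allows up to 50%. Among those gated as sinusoidal (787 PCB126 and 56 Control barcodes), Klf2 stood at 271.5 CPM in PCB126 and 109.2 CPM in Control, a ratio of 2.49 (1.47 to 4.57), and Klf4 at 106.1 and 31.2 CPM, a ratio of 3.40 (1.31 to 12.6). Among those gated as vascular (176 and 36 barcodes), Klf2 stood at 274.0 CPM in PCB126 and 125.0 CPM in Control, and Ece1 at 311.9 and 125.0 CPM. These genes were named because the interval of each ratio lay above 1, so that trait is no further result. Their Control sums were small: 14 Klf2 and 4 Klf4 UMIs in sinusoidal barcodes, and 7 Klf2 and 7 Ece1 UMIs in vascular ones. In vascular barcodes Nos3 was 52.5 CPM in PCB126 and 71.5 CPM in Control, a ratio of 0.734 (0.242 to 2.98), and Npr3 had 0 and 2 UMIs. Edn1 was lower in PCB126 among these barcodes, as in the main comparisons, with 7.67 CPM in PCB126 and 39.0 CPM in Control sinusoidal barcodes. In vascular ones it was 145.7 and 446.5 CPM.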

How the results depend on the processing

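Of 615 recomputed ratios of the 8 genes, 521 stayed within the counting interval of the reported ratio, 92 moved out of it, some across 0, and 2 ratios past 2-fold as reported changed direction; 24 of 43 ratios stayed on 1 side of 0 on the log2 scale in every alternative run. In both classes Klf2, Nos3, Edn1 and Adm stayed on 1 side: Klf2 spanned 0.85 to 2.09 in sinusoidal and 0.50 to 1.41 in vascular cells, and Edn1 -4.05 to -2.11 and -1.61 to -0.99. The 2 were those of Ednrb in midzonal and periportal cells, at -1.18 with classes from clusters and -0.68 without cells near the class boundary. The count of genes past 2-fold higher in sinusoidal cells, 1 as reported, was 0 with up to 50% mitochondrial UMIs, with totals that leave out mitochondrial genes, with ratios centred on the median gene, with the boundary at 0 and with immediate early classes weighed equally, and 2 with the profile of all cells subtracted. The count lower there, 1 as reported, was 2 with at most 10% or up to 50% mitochondrial UMIs, after thinning, with classes from clusters and without cells near the boundary. In vascular cells the count higher, 0 as reported, was 1 without the 5 richest cells, with subtypes weighed equally and with the profile subtracted, and the count lower, 2 as reported, was 1 with doublets kept, with the boundary at 0 and with a minimum of 100 UMIs. The other vasoactive list had a sinusoidal median of -0.90 that became 0.13 with that minimum, where fewer genes were measured; the other causes were not tested. No paired analysis was possible because each group is 1 library and the replicate numbers only name it, and no library could be left out. The planned ambient profile from barcodes under 500 UMIs was not run, since the lowest barcodes held 865 (PCB126) and 534 (Control) UMIs. Ratios that crossed 0 without having been past 2-fold included Ednrb in sinusoidal cells (-1.33 with classes from clusters) and Klf4 there (-0.11 with at most 10% mitochondrial UMIs). Adm had 10 PCB126 and 33 Control UMIs in vascular cells, which limits its precision.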
